A study of Mus musculus with 4 samples.

Results

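The small leucine-rich proteoglycans (SLRPs) are secreted proteins of the extracellular matrix. The genes of 10 of them, Dcn, Bgn, Lum, Fmod, Ogn, Omd, Prelp, Aspn, Podn and Kera, were read in gonadal white adipose tissue (WAT) of mice. They were taken by gene symbol from the table that pairs the array's probe sets with genes. All 10 were found, with 1 probe set each, among 20239 probe sets that carry a gene symbol and 21225 in all. All mice were male NMRI mice, an outbred stock, which received standard food until the age of 40 days. Controls stayed on this normal diet (ND; 3.3% fat), and the others were given a fat diet (FD; 18% fat, from sunflower oil) for 8 days, so that both groups were 48 days old at section. RNA of 3 mice per diet was combined into 1 pool, and each pool was put on 2 Affymetrix mouse gene arrays. Each diet is thus 1 biological sample, the 2 arrays of a diet repeat labelling and hybridisation only, and no p-value can be given for the diet.

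SLRP proteins carry a curved domain of leucine-rich repeats with which many of them bind collagen. They settle on collagen fibrils, where they limit fibril width and space the fibrils, and several of them hold growth factors of the TGF-β family in the matrix. Some carry chains of chondroitin or dermatan sulfate (Dcn, Bgn), others keratan sulfate (Lum, Fmod, Kera, Omd, Ogn), while asporin, the product of Aspn, carries a run of aspartates instead. In adipose tissue they belong to the collagen-rich matrix around adipocytes and vessels, which is made largely by fibroblasts and other stromal cells.

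The arrays report 1 log2 expression value per probe set. Differences between diets are FD minus ND, each diet being the mean of its log2 values. A gene was called higher or lower in FD when this difference reached 1.5-fold (a log2 difference of 0.58), every FD array was on the same side of every ND array and the mean level over the 4 arrays was at least 6. With 1 pool per diet this rule of size stands in place of a test. Of 14 adipocyte markers, 13 had a named probe set, and the lowest of these had a mean level of 10.94. Across probe sets, which share arrays and are no replicates, duplicates had r = 0.996 in ND and r = 0.998 in FD. The SD of the duplicate difference divided by the square root of 2 was 0.11 in ND and 0.08 in FD. The SD of FD minus ND over the same probe sets, which was not divided, was 0.41.

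Of the 10 SLRP genes, 8 reached the level of 6, and Omd and Kera did not. Among these 8, Aspn and Lum were called higher in FD, against a background of 1.33% of 18211 probe sets called higher. None of the 8 was called lower, where the background was 4.28%. In 7 of the 8 both FD arrays lay above both ND arrays, as in 36.3% of all probe sets at that level. In none did both FD arrays lie below both ND arrays, as in 27.2%. The median difference of the 8 genes was 0.40, beside 0.03 over all 18211 probe sets. Taken relative to fibroblast markers it was -0.054, beside -0.42 over all probe sets, since that scaling subtracts 0.45 from every difference. The order of the differences ran from Aspn and Lum over Podn, Fmod, Prelp and Bgn to Dcn and Ogn.

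Several SLRP genes lie side by side in the mouse genome, and the differences between the diets varied among such neighbours. Aspn and Ogn, of 1 cluster on chromosome 13, differed most among the 8 genes, while Prelp and Fmod, neighbours on chromosome 1, had similar differences. Prelp, at a mean level of 13.31, lies near the top of the scale, whose part in this was not tested. The sequences before the starts of Aspn, Ogn, Prelp and Fmod are therefore shown. Each is the 250 bases upstream of the transcription start in GRCm38.p6 (RefSeq), read 5′ to 3′ on the strand of the gene. Capitals mark CAGAC or its reverse complement GTCTG, a sequence that SMAD proteins of the TGF-β pathway bind, and CANNTG, the E-box, which reads the same on both strands.
Aspn (chr13:49544193-49544442, plus strand): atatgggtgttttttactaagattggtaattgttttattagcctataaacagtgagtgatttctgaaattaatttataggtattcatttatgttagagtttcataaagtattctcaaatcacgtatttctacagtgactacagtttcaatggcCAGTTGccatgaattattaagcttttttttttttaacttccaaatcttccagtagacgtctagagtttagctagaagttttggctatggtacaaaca
Ogn (chr13:49607765-49608014, plus strand): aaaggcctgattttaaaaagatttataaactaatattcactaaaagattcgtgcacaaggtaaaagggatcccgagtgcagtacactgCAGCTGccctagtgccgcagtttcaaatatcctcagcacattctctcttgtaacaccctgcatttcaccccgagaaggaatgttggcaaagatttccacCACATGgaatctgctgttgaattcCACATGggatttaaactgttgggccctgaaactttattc
Prelp (chr1:133921402-133921651, minus strand): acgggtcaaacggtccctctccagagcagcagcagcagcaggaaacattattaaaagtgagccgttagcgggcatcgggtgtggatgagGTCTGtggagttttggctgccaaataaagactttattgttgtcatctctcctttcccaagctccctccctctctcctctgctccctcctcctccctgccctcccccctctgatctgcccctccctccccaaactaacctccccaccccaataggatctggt
Fmod (chr1:134037004-134037253, plus strand): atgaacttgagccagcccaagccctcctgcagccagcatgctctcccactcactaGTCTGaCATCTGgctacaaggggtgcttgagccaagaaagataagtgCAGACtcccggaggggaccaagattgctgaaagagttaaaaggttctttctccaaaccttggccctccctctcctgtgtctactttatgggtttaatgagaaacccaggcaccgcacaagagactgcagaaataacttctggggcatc

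The neighbours Prelp and Fmod had CAGAC or GTCTG in these windows, 1 and 2 times, and Aspn and Ogn had none. The element was found in 42.2% of 32851 RefSeq promoter windows of that length. Aspn had 1 E-box, Ogn 3 and Fmod 1, and Prelp had none, where 66.2% of all windows held at least 1. Matches of the motifs did not overlap. The Aspn window was poor in G and C, with 30.0%, against 42.0% for Ogn, 55.6% for Prelp and 51.2% for Fmod. Of the 10 genes, 8 have a window in the RefSeq table. Among the other 4 of these, Bgn held 1 E-box, the 2 windows of Podn held 3 and 1, Omd and Kera held none, and none held CAGAC or GTCTG. A match describes the letters only, and binding was not measured.

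**Figure D1:**
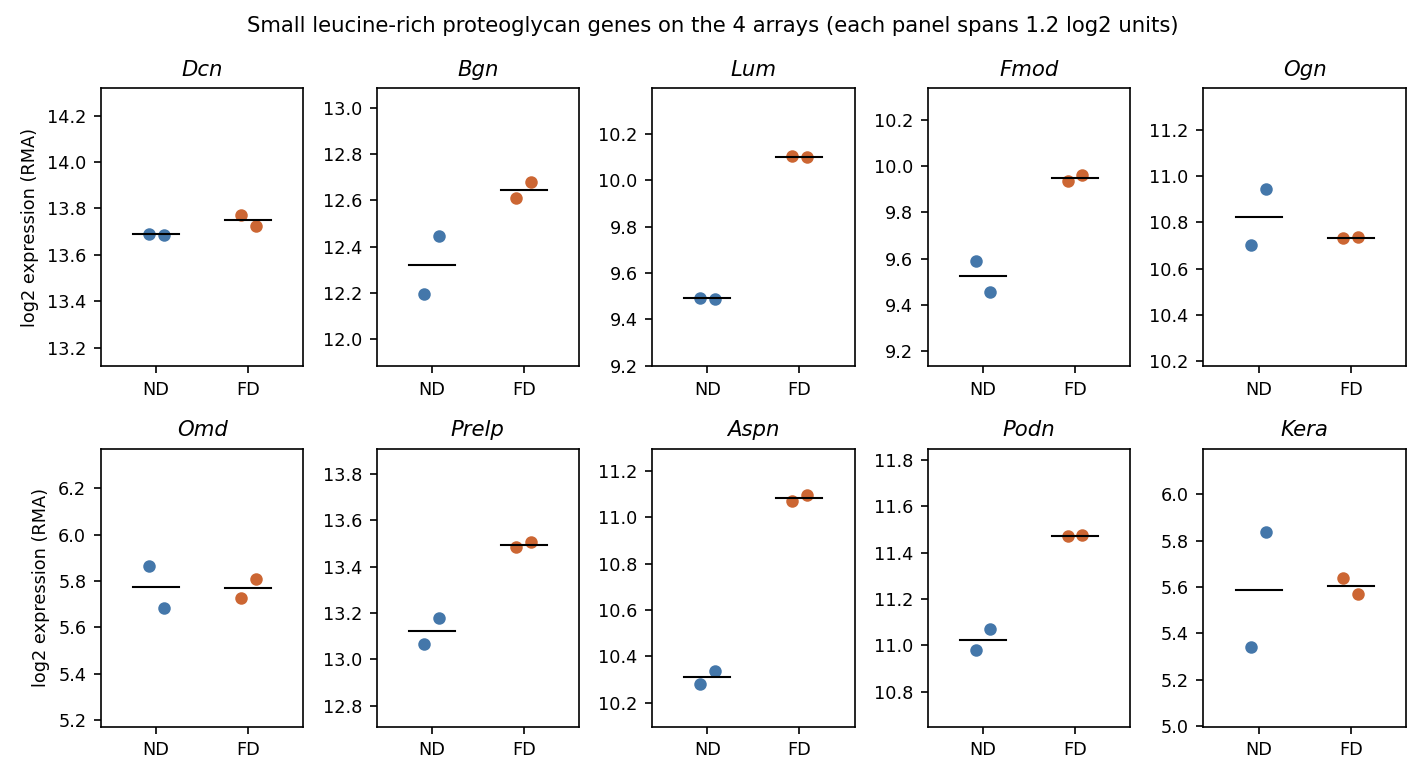
Log2 expression (RMA) of the 10 SLRP genes on each of the 4 arrays, with points for arrays, lines for the mean of a diet and an axis of equal span in every panel. In Aspn and Lum the FD arrays stand more than 0.60 above the ND arrays, in Dcn by 0.03. In Ogn, Omd and Kera the diets overlap. Relative to fibroblast markers Dcn was at -0.39 and not called, where the median of all probe sets was -0.42.

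Decorin, biglycan and asporin form the class of SLRPs with the closest relation to decorin. Aspn, whose product binds collagen and restrains TGF-β, was at 10.28 and 10.34 on the ND arrays and at 11.07 and 11.10 on the FD arrays. Its mean was 10.31 ± 0.04 in ND and 11.08 ± 0.02 in FD (SD, n = 2 arrays of 1 RNA pool). The diets were separated by 0.73, while duplicates differed by 0.06 in ND and 0.03 in FD. FD thus exceeded ND by 0.77, or 1.71-fold. A difference at least as large in this direction was found in 97 of the 18211 probe sets, or 0.533%. Of the 10 genes, Aspn had the largest difference.

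Bgn encodes biglycan, which in the matrix binds collagen and, once released, can signal through Toll-like receptors. It was at 12.20 and 12.45 in ND and at 12.61 and 12.68 in FD. The FD arrays lay above the ND arrays, but the gap of 0.16 was smaller than the difference of 0.25 between the ND duplicates. The difference between the diets was 0.32, or 1.25-fold, and Bgn was not called. With ND array 1 left out this difference was 0.20, and with the other ND array left out 0.45. Relative to fibroblast markers it was -0.13, where the median of all probe sets was -0.42.

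Dcn encodes decorin, a binder of collagen and TGF-β. Its values were 13.69 and 13.68 in ND and 13.77 and 13.73 in FD. Here the diets were 0.03 apart, no more than the FD duplicates, which differed by 0.05. The difference of 0.06 (1.04-fold) was not called, and relative to fibroblast markers it was -0.39. Over all probe sets the median in that scaling was -0.42. Dcn lies near the top of the scale, where the highest value on any array was 14.42. Of 70 probe sets at a mean level of 13 or more, 1 was called in either direction, or 1.43%, against 5.63% of those between 6 and 13. The SD of their differences was 0.20, against 0.41 below. How far the scale limits the value of Dcn was not tested.

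Lumican, fibromodulin, PRELP, keratocan and osteomodulin form the class that mostly carries keratan sulfate. Lum, known for the order of collagen fibrils in cornea and skin, was at 9.49 on both ND arrays and at 10.11 and 10.10 on the FD arrays. Its mean was 9.49 ± 0.004 in ND and 10.10 ± 0.006 in FD (SD, n = 2 arrays of 1 RNA pool). The duplicates were thus much closer to each other than the diets, which were 0.60 apart. The difference of 0.61 corresponds to 1.53-fold, just above the threshold. In this direction, 211 probe sets, or 1.16%, had one at least as large. Taken relative to the adipocyte markers, whose median was 0.06, it was 0.55 and no longer called. Several of these markers, among them Adipoq and Fabp4, lie in the top range of the scale, whose part in this was not tested.

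Fmod encodes fibromodulin, which binds collagen at a site it shares with lumican and is abundant in tendon. It was at 9.59 and 9.46 in ND and at 9.93 and 9.96 in FD. Both FD arrays lay 0.34 above the higher ND array, and the difference was 0.42, or 1.34-fold. Prelp, whose product ties basement membranes to collagen, was at 13.07 and 13.18 in ND and at 13.48 and 13.50 in FD. Its arrays were 0.31 apart, and the difference was 0.37, or 1.29-fold, in the same top range of the scale as Dcn. Neither reached 1.5-fold, and relative to fibroblast markers they were at -0.03 and -0.08, with all probe sets at a median of -0.42.

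Kera and Omd, best known from cornea and bone, were dim on all arrays. Kera was at 5.34 and 5.84 in ND and at 5.64 and 5.57 in FD. Omd was at 5.86 and 5.68 in ND and at 5.73 and 5.81 in FD. In both the FD arrays lay between the ND arrays, and the differences of 0.02 and -0.005 were smaller than the 0.49 and 0.18 between their ND duplicates. Whether these genes were transcribed in the tissue cannot be read from such values.

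Ogn encodes osteoglycin, also called mimecan, of a further class with a shorter repeat domain. It was at 10.70 and 10.94 in ND and at 10.73 on both FD arrays. The FD arrays lay between the ND arrays, and the difference of -0.09 was smaller than the spread of 0.24 between the ND duplicates. Without ND array 2 it was 0.03. Podn encodes podocan, of a class with a longer repeat domain, which in mice restrains growth of smooth muscle cells of arteries. Its values were 10.98 and 11.07 in ND and 11.47 and 11.48 in FD. The FD arrays lay 0.40 above the ND arrays, and the difference of 0.45 (1.37-fold) was the largest of those not called. Relative to fibroblast markers that of Podn was -0.002, with all probe sets at a median of -0.42.

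**Figure D2:**
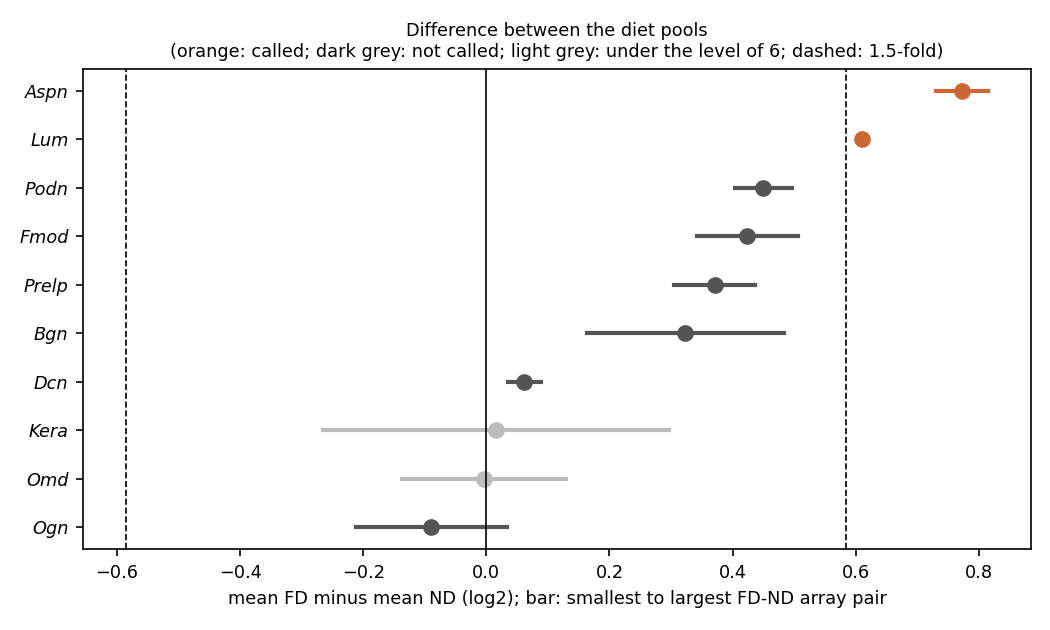
Difference between the diets (mean FD minus mean ND, log2) for each of the 10 genes, with bars from the smallest to the largest difference of an FD and an ND array and dashed lines at 1.5-fold. Aspn at 0.77 and Lum at 0.61 lie beyond the line, and 5 genes between 0.06 and 0.45 lie short of it with bars above 0. Of these 7 genes only Aspn and Lum were above 0 relative to fibroblast markers, where the median of all probe sets was -0.42.

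Along the chromosomes, genes of the family that were called stood beside genes that were not. On chromosome 10 the order is Dcn, Lum, Kera and Epyc, where Epyc encodes epiphycan of cartilage. Lum exceeded its neighbour Dcn by 0.55 in its difference between the diets, where Dcn lies in the top range of the scale, whose part in this value was not tested. Epyc was at 6.38 and 6.27 in ND and at 6.24 and 6.28 in FD, and its difference of -0.06 was not called.

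On chromosome 13 the order is Ecm2, Aspn, Omd and Ogn. Ecm2 encodes an SLRP-like matrix protein and was at 8.82 and 9.02 in ND and at 9.18 and 9.22 in FD, a difference of 0.28 that was not called. The difference of Aspn exceeded that of Ecm2 by 0.49 and that of Ogn by 0.86. In both pairs the ratio of the genes on the FD arrays lay outside its range on the ND arrays. The ratio of Aspn to Ogn had an SD of 0.13 between ND arrays and 0.02 between FD arrays. Such a ratio within an array does not change when an array is scaled by a constant.

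On chromosome 1 the order is Optc, Prelp and Fmod. The differences of Fmod and Prelp were 0.05 apart, and the ratio of these genes overlapped between the diets. Prelp lies in the top range of the scale, whose part in this value was not tested. Optc, which encodes opticin of the vitreous of the eye, was called lower in FD. It was at 8.46 and 8.21 in ND and at 7.70 and 7.68 in FD, a difference of -0.64, which was -0.52 and not called without ND array 1. Its difference lay 1.01 below that of its neighbour Prelp.

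**Figure D3:**
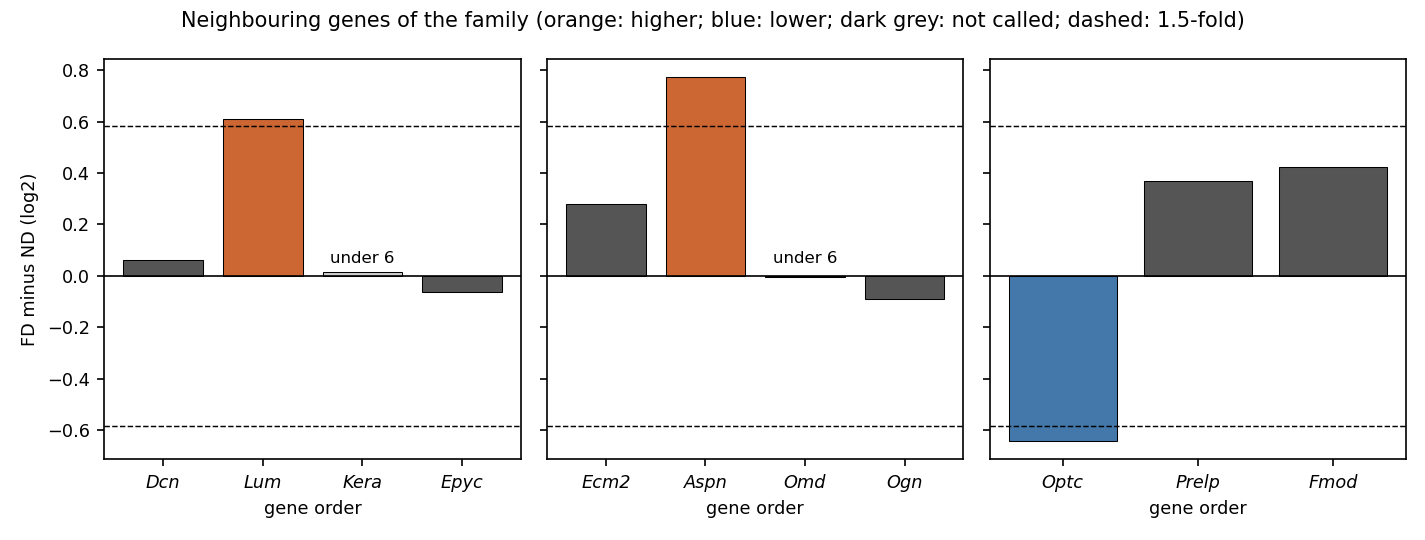
Difference between the diets (FD minus ND, log2) for SLRP genes in their order on chromosomes 10, 13 and 1, from left to right; dashed lines mark 1.5-fold. Lum (0.61) and Aspn (0.77) stand above the line beside neighbours at or below 0.28. Optc (-0.64) stands below it beside Prelp (0.37) and Fmod (0.42). Relative to fibroblast markers Prelp was at -0.08 and Fmod at -0.03, where the median of all probe sets was -0.42.

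Of 7 measured SLRP genes outside the 10, Optc was called lower and none higher, against 4.28% and 1.33% of all probe sets. Their median difference was -0.06 (0.13 with a level of at least 7). Chad, the chondroadherin of cartilage, was at -0.30 with both FD arrays below the ND arrays, and was not called.

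SLRPs act together with collagens. Of 12 genes of fibrillar collagens, fibril-associated collagens and collagen VI, 7 were called higher in FD, against 1.33% of all probe sets. Among the 7 were the collagen VI genes Col6a1, Col6a2 and Col6a3. None was called lower, against 4.28%, and the median was 0.61. Without FD array 2, 6 were called higher, with Col6a2 at 0.58. Col14a1, a collagen on the fibril surface, was at 10.22 and 10.11 in ND and at 11.30 and 11.32 in FD. The FD arrays were far above the ND arrays, and the difference was 1.15. Col5a2 (0.75), Col6a3 (0.74) and Col5a3 (0.73) followed. Relative to adipocyte markers 5 of the 12 were called, and relative to fibroblast markers 1, Col14a1, with a median of 0.16. Of the 12 collagens, 1 had a larger difference than Aspn, 5 a larger one than Lum, 11 than Dcn and all 12 than Ogn.

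The enzymes that build the sugar chains showed few calls. Of 22 genes for the synthesis of chondroitin and dermatan sulfate none was called, with a median of 0.15. The largest were Chst7, a chondroitin sulfotransferase, at 0.51 and Fam20b, the kinase of the linker xylose, at -0.43. Of 13 genes for keratan sulfate and tyrosine sulfation, Chst4, a sulfotransferase, was called higher. It was at 7.32 and 7.44 in ND and at 8.02 and 8.03 in FD, a difference of 0.64, which was not called relative to adipocyte markers (0.58) or fibroblast markers (0.19). The median of these genes was 0.06.

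Among 16 measured proteases and inhibitors that act on SLRPs or with them the median was 0.26. Of these, 2 were called higher and none lower, against 1.33% and 4.28% of all probe sets. Both encode enhancers of procollagen C-proteinase, which also trims pro-biglycan. Pcolce2 was at 8.88 and 9.00 in ND and at 10.04 and 10.06 in FD, a difference of 1.11, and Pcolce was at 0.64 (0.58 and not called relative to adipocyte markers). Bmp1, the gene of that proteinase, was at 0.34 and not called.

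Among 27 measured ligands and receptors of SLRPs the median was 0.14. Tnxb, a tenascin that binds decorin and collagen, was higher with 0.89, and so was Fn1, the gene of fibronectin, with 0.64 (not called without ND array 1, at 0.53, or relative to adipocyte markers, at 0.58). Igf1r, the receptor of insulin-like growth factor, was lower with -0.59. Its call was lost without ND array 2 (-0.51) or FD array 1 (-0.57), and with the arrays centred on their medians (-0.55). Tgfb1 was at 0.04, and the Toll-like receptor genes Tlr2 and Tlr4 were at 0.29 and 0.34, none of them called.

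Of 24 other proteoglycan genes, 5 were called higher and 1 lower, against 1.33% and 4.28% of all probe sets. Their median was 0.34. Ncan (neurocan) was at 0.92, Cspg4, of pericytes, at 0.81 and Vcan (versican) at 0.69. Srgn, the gene of serglycin in granules of blood cells, was lower with -0.80. Prg4 was at 0.68, and at 0.57 without FD array 2, when it was not called.

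**Figure D4:**
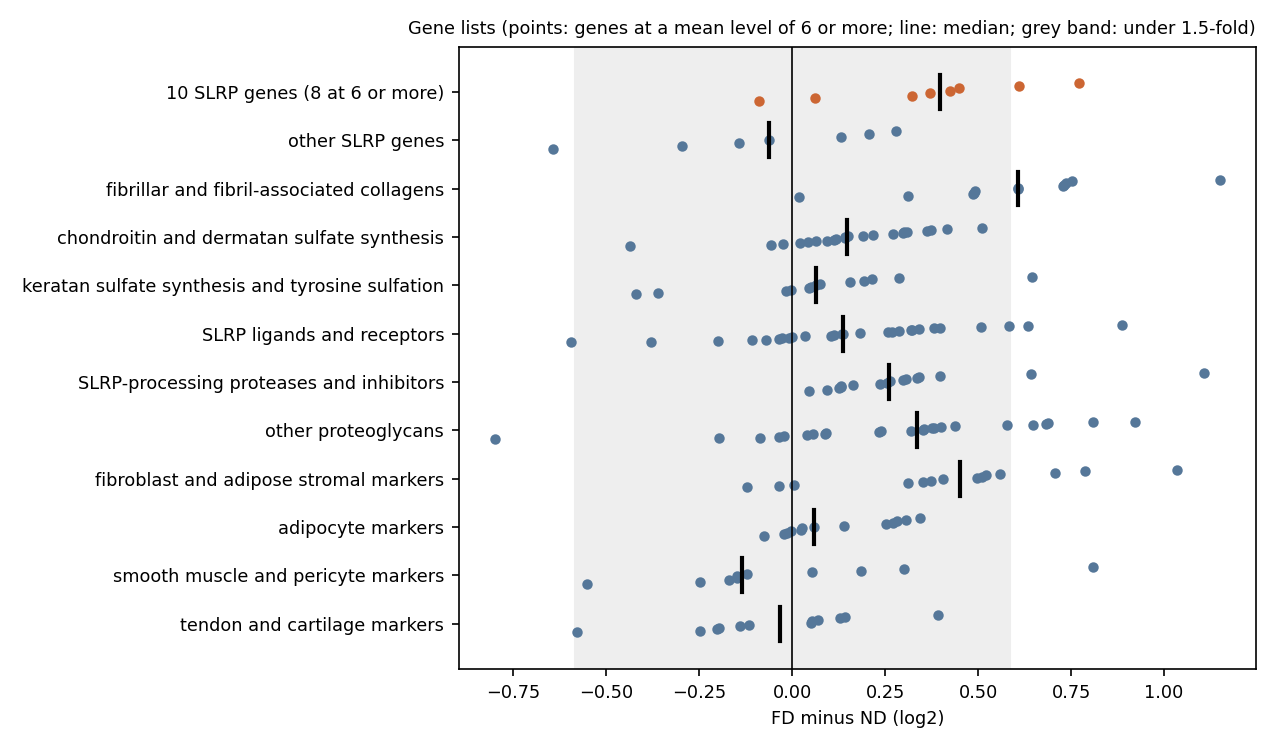
Difference between the diets (FD minus ND, log2) of genes at a mean level of 6 or more in the SLRP genes and in 11 other lists, with points for genes, black lines for medians and a grey band for differences under 1.5-fold. The median is 0.40 for the 8 SLRP genes, 0.61 for the collagens, 0.45 for fibroblast markers and 0.06 for adipocyte markers. Relative to fibroblast markers that of the SLRP genes is -0.054, beside -0.42 over all probe sets. Not drawn are the macrophage (0.38), endothelial (0.34), mesothelial (0.80), epididymis (-4.32) and liver (1.48) lists, given with their medians.

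Markers of stromal cells were read beside the SLRP genes. Of 14 measured markers of fibroblasts and adipose stromal cells, 3 were called higher and none lower, against 1.33% and 4.28% of all probe sets. The 3 were Mfap5 (1.03), Thy1 (0.79) and Loxl1 (0.71). In 11 of the 14 both FD arrays lay above both ND arrays, as in 36.3% of all probe sets. In 2 they lay below them, as in 27.2%, namely Pdgfra (-0.04) and Dpp4 (-0.12). The median of the 14 was 0.45, and the log2 of their summed signal was 14.35 to 14.42 in ND and 14.78 to 14.79 in FD. Relative to that median of 0.45, Aspn was at 0.32 and Lum at 0.16, and neither was called. Among the fibroblast markers, 2 had a larger difference than Aspn and 3 a larger one than Lum. Their part in the result was not tested. In such bulk RNA, more cells of a type and more RNA per cell cannot be told apart.

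Markers of adipocytes had a median of 0.06 with none of 13 called, and the largest were Plin1 (0.34) and Lep (0.30). Adipoq, Cidec, Fabp4, Lpl, Pnpla2, Lipe and Car3 lay in the top range of the scale, at a mean level of 13 or more. How far the scale limits this median was not tested. Smooth muscle and pericyte markers were at a median of -0.13 with Cspg4 as the only call of 10, and markers of tendon and cartilage, tissues rich in Fmod and Aspn, at -0.03 (0.01 after median centring of the arrays) with none of 12 called. Without ND array 1, Cnn1 (-0.59) of the former and Mkx (-0.59) of the latter were called lower, and Mkx, otherwise at -0.58, was also called without FD array 2 (-0.60) and after cyclic loess (-0.64). Relative to adipocyte markers both were called lower, with -0.61 for Cnn1 and -0.64 for Mkx. Relative to fibroblast markers 5 of the 10 smooth muscle and pericyte markers and 5 of the 12 tendon and cartilage markers were called lower. In that scaling 21.9% of all probe sets were called lower. Without scaling, Col2a1 was at 0.39. Endothelial markers had a median of 0.34 with Robo4 (0.72) higher of 10. Macrophage markers had one of 0.38 with Itgam (0.64), C1qc (0.63) and C1qb (0.59) higher of 11, against 1.33% of all probe sets. The calls of C1qc (0.47) and C1qb (0.45) were lost without ND array 1, and that of C1qb also without FD array 2 (0.58). Relative to adipocyte markers all 3 were lost, with Itgam at 0.58, C1qc at 0.57 and C1qb at 0.53. Of 10 mesothelial markers, 6 were higher and 2 lower, against 1.33% and 4.28% of all probe sets. Among the 6 were Msln (1.25) and Upk1b (1.10), and the 2 were Krt18 (-1.67) and Krt8 (-1.12). The median of the 10 was 0.80.

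The pools also differed in markers of other organs. Of 12 measured epididymis markers, 9 were lower in FD, against 4.28% of all probe sets. The log2 of the summed signal of the epididymis list was 15.27 to 15.28 in ND and 12.18 to 12.26 in FD. Of 13 genes of liver secreted proteins, 10 were higher, against 1.33% of all probe sets. The log2 of the summed signal of this list was 14.03 to 14.16 in ND and 14.74 to 14.75 in FD. The median difference of the 13 was 1.48, and the largest was that of Alb (4.14). What the diet did to the SLRP genes and what the sampled tissue of a pool did cannot be told apart with 1 pool each.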

How the data were processed

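RNA of gonadal WAT was pooled from 3 male NMRI mice per diet, and each of the 2 pools was measured on 2 Affymetrix Mouse Gene 1.0 ST arrays. The authors deposited log2 expression values made with RMA, as named in the submitters' processing notes, with background correction, normalization between arrays and 1 value per probe set. Software, version and genome build were not given in the sources used here. Deposited values entered without further normalization. Arrays have no sequencing depth, and having 1 pool per diet limits the precision for the diet.

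Of 21225 probe sets, 986 carry no gene symbol here. Probe sets were named by the platform annotation, with the Entrez gene numbers of the 10 genes matched to RefSeq (GRCm38.p6). The gene order comes from that annotation, for protein-coding genes, and the promoter sequences from RefSeq windows of the same build. Of the windows, the 250 bases before the start were searched.

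Differences and calls were computed with pandas 2.3.3 in Python 3.11.15 across all probe sets at a mean log2 value of at least 6, and no p-value was computed. The calling rule was tested on simulated data. In addition to the 10 genes there are 7 lists of related genes and 9 of cell type markers, with 229 of 234 entries named. Text names the members of a list that were called, or the 4 with the largest absolute differences where more were called, and the 2 largest where none was. Ecm2, Epyc, Chad, Tgfb1, Tlr2, Tlr4, Bmp1, Prg4, Col6a2, Pdgfra, Dpp4, Cnn1 and the compared neighbours were named after their values were seen. For mesothelial, epididymis and liver markers only examples, counts, medians or summed signals are given. The 10 genes and all lists were chosen with earlier results of these data known. The alternatives were no level filter or one at 7, a call at 1.3-fold or at 2-fold, cyclic loess (limma 3.58.1), centring of each array on its median, differences relative to the median of adipocyte or of fibroblast markers, and leaving out each array.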

Additional observations from a re-analysis of the deposited data

How the results depend on the processing

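Aspn and Lum were the 2 SLRP genes called higher without a level filter, with a filter at 7, with arrays centred on their medians, after cyclic loess and without any 1 array. At 1.3-fold 4 were called higher, with Podn and Fmod added, where 4.77% of all probe sets were called higher, and at 2-fold 0 (0.225%). Relative to adipocyte markers 1 was called, Aspn (0.955%), and relative to fibroblast markers 0 (0.187%). None of these alternatives called 1 of the 10 genes lower, while relative to fibroblast markers 21.9% of all probe sets were. Of the related genes called higher, Col14a1 and Pcolce2 alone kept their call in that scaling. The median difference of 0.40 lay between 0.36 and 0.44 with 1 array left out, was 0.44 with arrays centred on their medians and 0.39 after cyclic loess, and was -0.054 relative to fibroblast markers. That scaling subtracts 0.45 from every difference, so that the median of all probe sets becomes -0.42, and it leaves positive medians only in collagens and in mesothelial and liver markers (and 0 in the fibroblast markers themselves). The median of adipocyte markers was 0.20 when ND array 2 was left out and was 0.03 when ND array 1 was. No paired analysis was possible because both arrays of a diet hold the same RNA pool and no test was made. Replicate mice were not measured apart. Omd and Kera lay under the level filter, and without it they were not called either.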
